A study of Mus musculus with 196 samples.

Results

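Chemokines and their receptors were followed across mouse skin. The 52 genes were taken by symbol: every gene whose symbol begins with Ccl, Cxcl, Ccr or Cxcr followed by a digit, together with Cx3cl1, Cx3cr1, Xcl1 and Xcr1. They are 52 of the 18820 genes that had a probe set naming that gene alone. There are 34 ligands, of which 19 are CC and 13 are CXC ligands, and 18 receptors, of which 10 are CC and 6 are CXC receptors. Of these genes, 14 lie on chromosome 11, 11 on chromosome 5 and 11 on chromosome 9, where chemokine genes and their receptors stand in clusters. A further 9 probe sets name a chemokine or receptor together with other genes and were not used.

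Chemokines are small secreted proteins that draw cells along a gradient, and their receptors are G protein-coupled receptors on the responding cells. In skin, keratinocytes, fibroblasts, endothelium and resident immune cells make the ligands, and T cells, dendritic cells, monocytes, neutrophils and eosinophils carry the receptors that read them. Some ligands are made steadily and position resident cells, and others are induced by interferon or by inflammatory cytokines.

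The arrays hold whole skin of untreated backcross mice aged 8 weeks, and 1 ug of total RNA was labelled for each array. Each mouse had an FVB/N father and a hybrid mother, the hybrid mothers being daughters of FVB/N dams and Mus spretus sires, so the animals differ in which loci carry a Mus spretus allele. Tail skin was measured in 97 mice (48 females and 49 males), anagen dorsal skin, with hair in its growth phase, in 14 mice (8 females and 6 males), and non-anagen dorsal skin in 85 mice (41 females and 44 males). Both tissues were measured in 96 of the 100 mice. Tails carry no hair cycle label of their own. Every value below is a log2 expression value of 1 probe set, and every difference is a log2 difference from limma with a p-value adjusted over all 18820 genes by the Benjamini-Hochberg method. Calls required an adjusted p under 0.05 and, between tissues or hair cycle states, also a difference of at least 1.

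Only 15 of the 52 genes lay above the median of all gene means (6.49) in the group where they were highest, so many members were measured near the low end of the scale, where the arrays' own background is not known. Epidermal and dermal markers were high in all groups. Krt5, a keratin of the basal epidermis, had a median of 12.41 in tail, 12.31 in anagen dorsal and 12.31 in non-anagen dorsal skin, and 0 of 8 skin markers passed the size threshold between tail and non-anagen dorsal skin. The 14 anagen arrays were heterogeneous in hair gene level: the mean of 8 hair shaft and sheath genes ran between 6.21 and 12.14 there, against 4.99 to 6.35 in non-anagen dorsal skin. Tail arrays were in batches 3 and 4 and dorsal arrays in batches 1 and 2, and the effects of batch and tissue therefore cannot be told apart. In bulk skin, fewer cells of a type and less RNA per cell cannot be told apart either. When each array was shifted to the same median, the median difference of all genes between tail and non-anagen dorsal skin became -0.14, and that between tail and anagen dorsal skin -0.13.

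The regions just before the starts of 3 ligand genes that were lower in tail skin are shown because they bear on the motifs through which interferon and inflammatory signals are known to act. Each is the 250 bases before the annotated start, 5′ to 3′ on the strand of the gene, from RefSeq on GRCm38.p6, and capitals mark the motif matches. The positions are chr5:92348890-92349139, minus strand, for Cxcl10, chr4:42756366-42756615, minus strand, for Ccl19, and chr5:92328080-92328329, minus strand, for Cxcl9.
Cxcl10: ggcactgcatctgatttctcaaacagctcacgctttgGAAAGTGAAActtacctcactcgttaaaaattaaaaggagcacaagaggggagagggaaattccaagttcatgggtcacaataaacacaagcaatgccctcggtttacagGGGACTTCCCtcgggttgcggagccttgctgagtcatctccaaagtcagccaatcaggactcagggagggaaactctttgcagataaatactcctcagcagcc
Ccl19: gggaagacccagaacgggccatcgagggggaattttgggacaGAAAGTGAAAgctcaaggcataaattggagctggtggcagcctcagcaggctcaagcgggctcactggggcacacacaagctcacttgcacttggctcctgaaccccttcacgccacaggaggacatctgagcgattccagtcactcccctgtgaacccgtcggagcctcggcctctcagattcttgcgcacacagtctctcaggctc
Cxcl9: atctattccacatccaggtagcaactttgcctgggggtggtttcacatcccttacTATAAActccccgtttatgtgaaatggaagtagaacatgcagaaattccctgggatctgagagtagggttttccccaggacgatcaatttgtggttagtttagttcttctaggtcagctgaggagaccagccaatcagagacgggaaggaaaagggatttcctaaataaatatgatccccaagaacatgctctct

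The core of the interferon-stimulated response element, searched on both strands as GAAA, any 2 bases and GAAA, began 213 bases before the start of Cxcl10 and 208 bases before that of Ccl19. It was found in 2.98% of the 32851 promoter windows of the table and in 3 of the 38 member genes with a window, the third being Cxcl14. The kappa B site, searched as GGGA, any base, TT, any base and CC, began 103 bases before the start of Cxcl10. It was in 0.98% of all windows and in 6 of the 38 member genes: Cxcl1, Cxcl2, Cxcl3 and Cxcl10 among the ligands and Ccr3 and Ccr6 among the receptors. The gamma-activated site, searched as TTCNNNGAA, was in 7.02% of windows and in 4 of the 38 genes. The letters of the TATA box, TATAAA, were in 12.4% of windows and in 12 of the 38 genes, at any position. In the window of Cxcl9 the TATAAA match was the only match to the 4 motifs, and it began 195 bases before the start. Position was not part of the search, so the match is not shown to be the TATA box of Cxcl9. The percentages count windows, while a member gene counted once if any of its windows matched, so the units differ. A match is a string of letters and does not show that a factor binds there. Only these exact strings were searched, so a window without a match is not shown to lack interferon or inflammatory elements.

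The first comparison asked how the chemokine system differs between tail skin and non-anagen dorsal skin. Of the 52 members, 5 were called higher in tail skin (Cxcr2, Ccl6, Ccr9, Ccl25 and Ccl24) and 6 were called lower (Ccr4, Cxcl9, Ccl19, Ccl8, Xcl1 and Cxcl10). Over all genes, 3.94% were called higher and 2.02% lower. At any size, 12 members were higher and 31 lower, beside 43.8% and 43.5% of all genes, and the median difference was -0.20 over the members and -0.0005 over all genes. With shifted medians 11 members were higher and 37 lower, and with quantile normalization 14 and 31. The shares of all genes at any size were not computed for these scalings. Cxcl14, among the 12, no longer passed with either (0.06, adjusted p = 0.19, and 0.01, adjusted p = 0.843). Hair shaft and sheath genes were all called higher in the tails (8 of 8), by a median of 5.07, and their mean level was 6.21 to 11.71 there, against 4.99 to 6.35 in non-anagen dorsal skin. Their part in the chemokine differences was not tested.

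**Figure D1:**
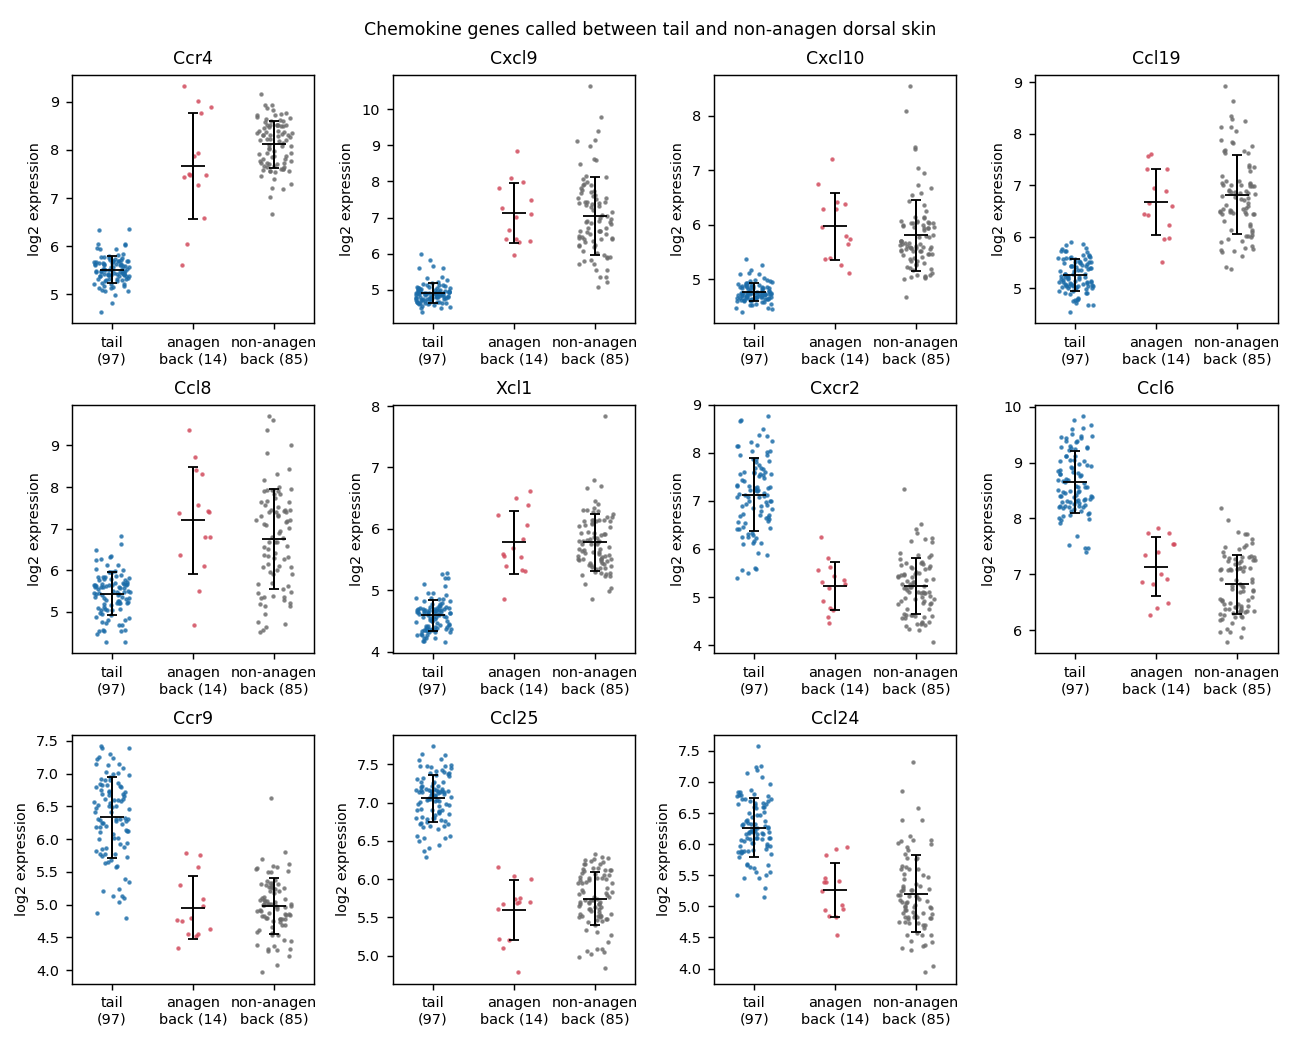
Log2 expression (y axis) of the 11 chemokine genes called between tail and non-anagen dorsal skin, in 97 tail, 14 anagen dorsal and 85 non-anagen dorsal arrays (1 point per array; bar, mean ± SD). The highest Ccr4 value in tail, 6.36, lies below the lowest in non-anagen dorsal skin, 6.68, and the lowest Ccl25 value in tail, 6.30, lies above the highest in anagen dorsal skin, 6.16.

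Among the interferon-inducible ligands, which bind Cxcr3 on activated T cells and natural killer cells, all 3 were lower in tail skin at any size and 2 passed the size threshold. Cxcl9 had a lowest, median and highest value of 4.39, 4.87 and 5.99 in tail skin, against 5.09, 6.89 and 10.64 in non-anagen dorsal skin. Its difference was -2.14 (SE 0.11, limma adjusted p = 1.17e-45). The tails were narrowly spread at the low end, and 71 of the 85 dorsal arrays lay above every tail.

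Cxcl10 ran through 4.40, 4.73 and 5.36 in tail skin and 5.11, 5.87 and 7.21 in anagen dorsal skin, with 4.67, 5.65 and 8.55 in non-anagen dorsal skin. The difference between tail and non-anagen dorsal skin was -1.05 (SE 0.07, limma adjusted p = 7.09e-34). The ranges overlapped, with 67 dorsal arrays above every tail. Cxcl11 differed by -0.79 (SE 0.05, adjusted p = 1.25e-38), under the size threshold.

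A list of 11 other measured interferon-stimulated genes, chosen as a companion to these ligands, had 5 genes called lower and 0 called higher in tail skin. The largest differences were those of Usp18, -2.74 (SE 0.05, adjusted p = 1.22e-106), which removes the ubiquitin-like protein Isg15, and Gbp2, -1.50 (SE 0.08, adjusted p = 2.20e-42), a guanylate-binding protein. The list's mean level was 4.74 to 5.64 in tails and 5.27 to 8.63 in non-anagen dorsal skin. Of 14 cytokines known to induce chemokines, 0 were called at the size threshold, and without that threshold 12 were lower and 1 higher in tail skin. Ltb differed by -0.64 (SE 0.04, adjusted p = 4.75e-34) and Tnf by -0.63 (SE 0.05, adjusted p = 2.32e-26).

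The neutrophil-attracting ligands differed little in measured level between the tissues, whereas their shared receptor differed by more. All of these ligands lay under the median of all gene means (6.49) in each group, with tail means between 2.96 (Cxcl15) and 4.91 (Cxcl1). So near the unknown background of the arrays, a small difference does not show that the ligands were equal in level. Of Cxcl1, Cxcl2, Cxcl3, Cxcl5 and Cxcl15, 0 were called at the size threshold, and the differences lay between -0.25 (Cxcl2) and -0.07 (Cxcl15). Cxcl1, Cxcl2, Cxcl3 and Cxcl5 were lower at any size, but with quantile normalization of all arrays Cxcl2 no longer passed the test and Cxcl5 was higher in tail skin (0.08, adjusted p = 0.0362). Cxcl15 was lower with the arrays shifted to the same median (-0.20, adjusted p = 3.67e-06) and higher with quantile normalization (0.19, adjusted p = 4.42e-08). Cxcr2, the receptor for these ligands on neutrophils, had values of 5.40, 7.15 and 8.77 (lowest, median and highest) in tail skin, against 4.06, 5.21 and 7.24 in non-anagen dorsal skin. The difference was 1.90 (SE 0.10, adjusted p = 9.72e-44), and 43 tails lay above every non-anagen dorsal array. Cxcr1, its paralogue, was lower in tail skin by a smaller amount (-0.54, SE 0.04, adjusted p = 1.13e-32).

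Neutrophil markers moved in both directions between the same tissues. Of 7 measured neutrophil markers 1 was called higher and 1 lower in tail skin. Without the size threshold 4 were higher and 3 lower, and the median difference was 0.20. S100a9, a calcium-binding protein that stressed keratinocytes make as well, was higher by 1.24 (SE 0.14, adjusted p = 3.65e-15), and Mpo, myeloperoxidase, differed by -1.44 (SE 0.11, adjusted p = 6.16e-29). The mean of the 7 markers ran between 4.45 and 6.37 in tails and between 4.44 and 5.50 in non-anagen dorsal skin. Their part in the Cxcr2 difference was not tested.

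The ligands of monocytes and of other inflammatory cells moved in both directions. Of 9, Ccl6, Ccl3 and Ccl9 were higher in tail skin at any size and Ccl4, Ccl5, Ccl7 and Ccl8 lower, of which Ccl6 and Ccl8 passed the size threshold. Ccl6, a mouse ligand of Ccr1 made by myeloid cells, had values of 7.40, 8.57 and 9.83 in tail skin and 5.79, 6.78 and 8.19 in non-anagen dorsal skin. It was higher in tail skin by 1.84 (SE 0.08, adjusted p = 5.86e-55), and 81 of 97 tails exceeded every non-anagen dorsal array. Its receptor Ccr1 was higher by 0.87 (SE 0.05, adjusted p = 1.20e-38).

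Ccl8, a ligand of Ccr8 in mice, varied most among the called genes in non-anagen dorsal skin, with an SD of 1.20. Its values were 4.27, 5.47 and 6.83 in tail skin, against 4.51, 6.80 and 9.71 in non-anagen dorsal skin. The dorsal arrays covered the whole range of the tails and went on above it, with 42 of 85 higher than any tail, and the difference was -1.32 (SE 0.13, adjusted p = 8.81e-19). Ccl2 (0.08, SE 0.06, adjusted p = 0.195) and Ccl12 (-0.04, SE 0.04, adjusted p = 0.383), ligands of Ccr2, did not pass the test, and neither did Ccr2 itself (-0.05, SE 0.06, adjusted p = 0.400). Ccl4 no longer passed with quantile normalization. Ccr2 was lower in tail skin with shifted medians (-0.19, adjusted p = 0.0045) and with quantile normalization (-0.16, adjusted p = 0.0263), while Ccl12 was lower with the first (-0.17, adjusted p = 8.66e-05) and higher with the second (0.13, adjusted p = 0.00113).

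Of 13 measured macrophage and dendritic cell markers, 1 was called higher in tail skin, the mannose receptor Mrc1 (1.23, SE 0.11, adjusted p = 7.07e-21), and 0 were called lower. Without the size threshold 9 were higher and 4 lower. Lyz2, lysozyme, differed by 0.83 (SE 0.11, adjusted p = 2.42e-11), while Adgre1, a macrophage surface protein, differed by -0.82 (SE 0.06, adjusted p = 5.45e-30) and Cd209a, a dendritic cell lectin, by -0.77 (SE 0.11, adjusted p = 3.82e-10). The mean of this list was 6.37 to 7.74 in tails and 5.89 to 8.14 in non-anagen dorsal skin. Its part in the Ccl6 and Ccl8 differences was not tested.

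Of the 8 ligands tied to skin homing, eosinophils and epithelia, 3 were higher in tail skin at any size, 2 were lower and 3 did not pass the test. Ccl24, an eotaxin that attracts eosinophils through Ccr3, had values of 5.15, 6.22 and 7.57 in tail skin and 3.94, 5.09 and 7.32 in non-anagen dorsal skin. The difference was 1.06 (SE 0.08, adjusted p = 8.18e-28). Only 1 tail lay above every dorsal array, while 46 dorsal arrays lay below every tail. It fell under the size threshold, at 0.93 and 0.96, when the arrays were shifted to the same median or quantile normalized. Ccl28, an epithelial ligand of Ccr10, was higher by 0.86 (SE 0.05, adjusted p = 6.92e-36), and Ccl11, another eotaxin, by 0.49 (SE 0.08, adjusted p = 4.42e-08).

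Of Ccr4 and its ligands, the receptor had the largest difference. Ccl17 (-0.01, SE 0.10, adjusted p = 0.889) and Ccl22 (-0.03, SE 0.06, adjusted p = 0.688) did not pass the test, but Ccl22 was lower in tail skin under both other scalings, by -0.16 (adjusted p = 0.0152) with shifted medians and -0.23 (adjusted p = 0.000572) with quantile normalization. Ccr4, which T cells that home to skin carry, had values of 4.63, 5.50 and 6.36 in tail skin, against 6.68, 8.20 and 9.17 in non-anagen dorsal skin. Every tail lay below every non-anagen dorsal array, and Ccr4 was the only member whose ranges did not overlap in this comparison, beside 0.478% of all genes that were lower without overlap and 1.42% that were higher. The difference was -2.60 (SE 0.06, adjusted p = 4.37e-99).

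Xcl1, a ligand made by T cells and natural killer cells that draws Xcr1-bearing dendritic cells, had values of 4.15, 4.61 and 5.28 in tail skin and 4.86, 5.75 and 7.84 in non-anagen dorsal skin. It was lower in tail skin by a difference of -1.19 (SE 0.05, adjusted p = 7.35e-53), and 86 of 97 tails lay below every dorsal array. Its receptor Xcr1 differed by -0.35 (SE 0.06, adjusted p = 5.60e-09). Cx3cl1, the membrane-bound ligand known as fractalkine, was higher by 0.46 (SE 0.03, adjusted p = 1.72e-28), and its receptor Cx3cr1 differed by -0.37 (SE 0.04, adjusted p = 1.47e-19).

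Markers of T cells, which carry Ccr4 and make Xcl1, moved in both directions. Of 10 measured T cell markers, 4 were called lower in tail skin and 0 higher, and the mean of the 10 was 4.93 to 5.60 in tails and 5.82 to 6.87 in non-anagen dorsal skin, with no overlap. Cd3g, a chain of the T cell receptor complex, differed by -3.74 (SE 0.07, adjusted p = 3.86e-113), and Trat1, an adaptor of the same complex, by -2.84 (SE 0.06, adjusted p = 2.49e-103). Without the size threshold 7 were lower and 3 higher, the higher ones being Cd5 (0.54, SE 0.03, adjusted p = 3.08e-37), Cd28 (0.46, SE 0.05, adjusted p = 1.15e-18) and Cd4 (0.16, SE 0.05, adjusted p = 0.00295). Of 6 natural killer cell markers, perforin (Prf1) was the 1 called, at -1.63 (SE 0.05, adjusted p = 3.15e-81). Of 5 Langerhans cell markers, 4 were called lower, among them Cd207 (langerin, -1.70, SE 0.05, adjusted p = 3.72e-74) and H2-Ab1 (-1.62, SE 0.05, adjusted p = 3.15e-74). Their part in the chemokine differences was not tested.

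The other receptors of lymphocytes were mostly lower in tail skin by less than the size threshold. Ccr7, which guides T cells and dendritic cells to lymph nodes, differed by -0.82 (SE 0.04, adjusted p = 6.49e-43), Ccr8 by -0.59 (SE 0.04, adjusted p = 6.98e-34) and Cxcr6 by -0.43 (SE 0.05, adjusted p = 1.13e-13). Cxcl16, the membrane-bound ligand of Cxcr6, differed by -0.75 (SE 0.04, adjusted p = 1.59e-39). Over all receptors, 2 of 10 CC receptors were higher and 6 lower at any size, and 1 of 6 CXC receptors was higher and 5 lower.

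Ccl19 and Ccl25, ligands best known from lymph node and from gut and thymus, went in opposite directions. Ccl19, which binds Ccr7, had values of 4.54, 5.22 and 5.89 in tail skin, against 5.38, 6.78 and 8.93 in non-anagen dorsal skin. The difference was -1.56 (SE 0.08, adjusted p = 1.64e-43), and 75 of 85 dorsal arrays lay above every tail. Ccl19 has 5 probe sets naming it alone, and near-identical gene copies exist in the mouse genome, so the copy measured is uncertain. The mean of the 5 gave -1.58 (SE 0.08, adjusted p = 7.68e-44).

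Ccl25 had values of 6.30, 7.10 and 7.74 in tail skin and 4.83, 5.73 and 6.33 in non-anagen dorsal skin. All but 1 of the 97 tails lay above every dorsal array, and the difference was 1.31 (SE 0.05, adjusted p = 2.13e-64). The mean of its 2 probe sets differed by 0.96 (SE 0.04, adjusted p = 3.26e-54), under the size threshold. Its receptor Ccr9 had values of 4.80, 6.41 and 7.42 in tail skin and 3.97, 4.99 and 6.62 in non-anagen dorsal skin, with 34 tails above every dorsal array. It was higher by 1.35 (SE 0.08, adjusted p = 6.76e-39).

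Genes around the chemokine system were counted from lists. Of 4 measured atypical chemokine receptors, which bind or scavenge chemokines without classical signalling, 0 passed the size threshold, and without that threshold 3 were lower and 1 higher in tail skin. Ccrl2 differed by -0.85 (SE 0.04, adjusted p = 5.76e-46) and Ackr1 by -0.51 (SE 0.05, adjusted p = 9.64e-18). Of 27 genes of chemokine receptor signalling, 1 was called lower at the size threshold, Rgs2, a regulator of G protein signalling (-1.80, SE 0.05, adjusted p = 2.24e-80), and 0 were called higher. The platelet chemokine Pf4, whose symbol keeps it out of the member rule, was higher by 1.11 (SE 0.09, adjusted p = 3.75e-27). Transcripts of skeletal muscle were lower in tail skin, with 6 of 7 muscle markers called and their mean at 5.02 to 9.09 in tails, against 5.39 to 11.62 in non-anagen dorsal skin. Of the B cell, blood endothelium, fibroblast and adipocyte markers 0 were called, and of 4 lymphatic markers Lyve1 was the 1 called (1.67, SE 0.11, adjusted p = 1.24e-34). The part of these cells in the chemokine differences was not tested. Of 8 mast cell markers 5 were called higher in tail skin, led by the tryptases Tpsab1 (1.92, SE 0.08, adjusted p = 1.70e-58) and Tpsb2 (1.39, SE 0.06, adjusted p = 3.12e-57).

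**Figure D2:**
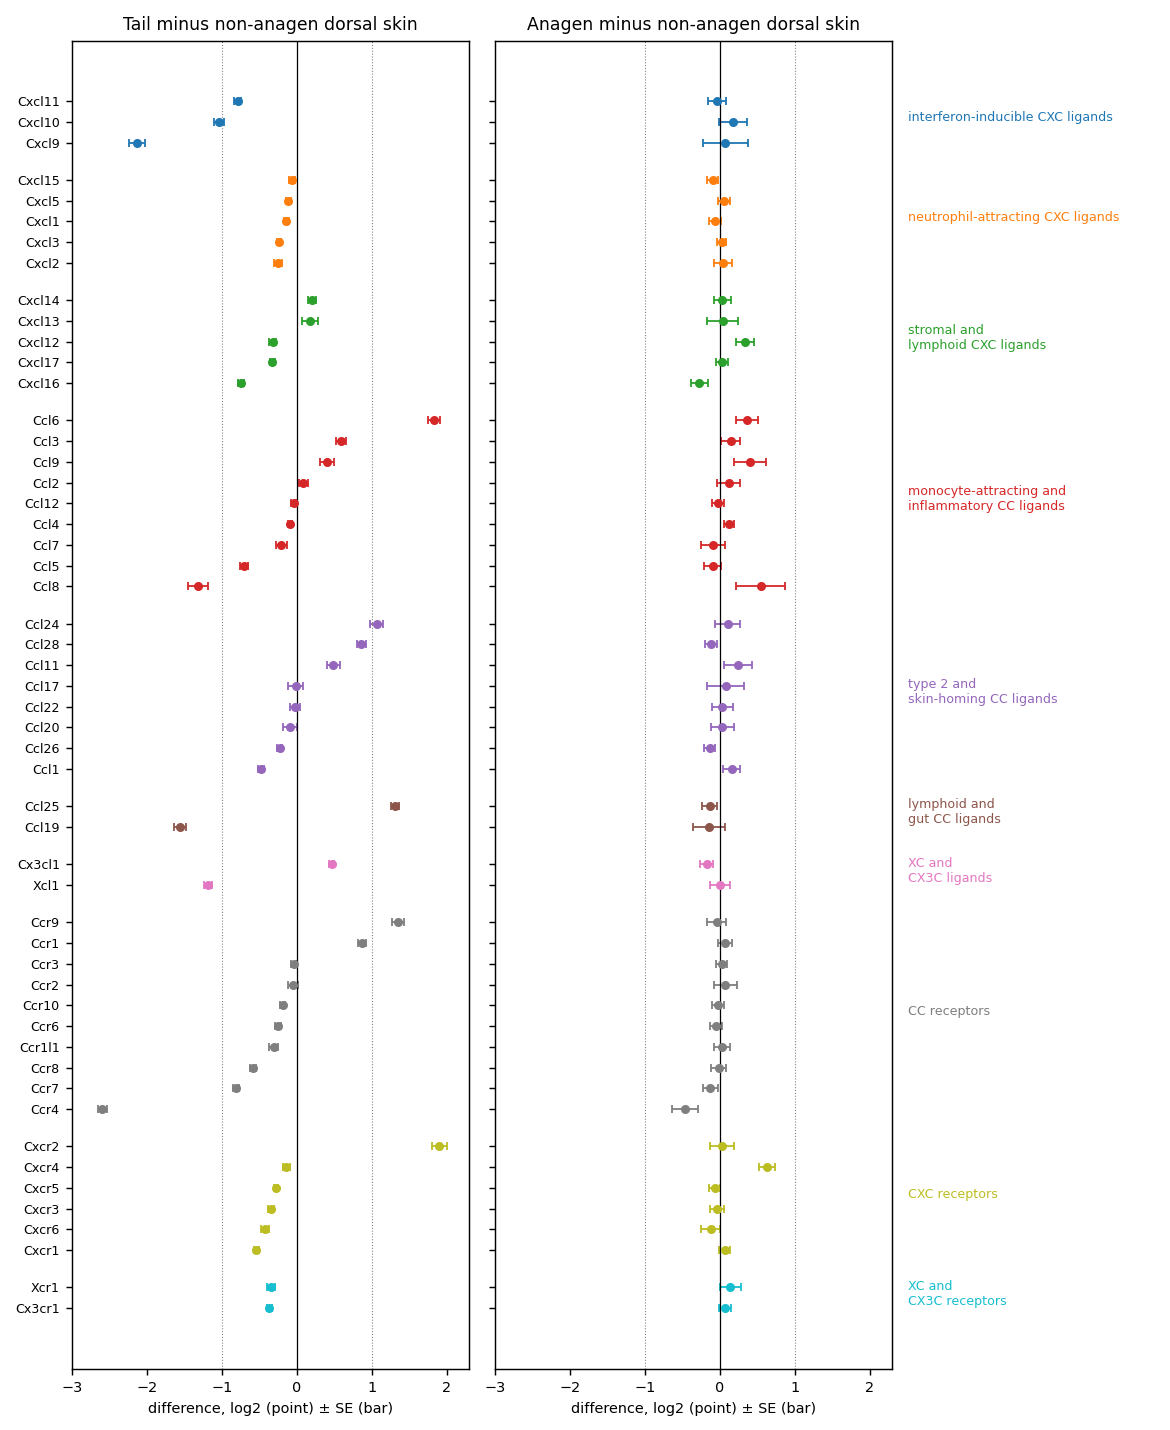
Log2 difference (x axis, point) with its standard error (bar) for all 52 chemokine and receptor genes (rows, grouped by role), tail minus non-anagen dorsal skin on the left and anagen minus non-anagen dorsal skin on the right. Dotted lines mark -1 and 1. On the left the differences run between -2.60 (Ccr4) and 1.90 (Cxcr2), and on the right the largest is that of Cxcr4, 0.63.

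Against anagen dorsal skin, which shares the tail arrays with the comparison above, tail skin had 5 members called higher and 6 called lower, beside 3.32% and 1.68% of all genes, and the counts without the size threshold were 10 higher and 28 lower, beside 39.8% and 36.0%. The higher ones were Cxcr2, Ccl6, Ccl25, Ccr9 and Ccl24, and the lower ones Cxcl9, Ccr4, Ccl8, Ccl19, Cxcl10 and Xcl1. Without the size threshold the members counted 9 higher and 33 lower with shifted medians, and 10 and 25 with quantile normalization. Ccl24 went under the size threshold with shifted medians (0.87), with quantile normalization (0.89) and within mice (0.91), and Ccl25 did so with the mean of its probe sets (0.98). Cxcl9 had values of 4.39, 4.87 and 5.99 in tail skin and 5.96, 7.05 and 8.86 in anagen dorsal skin, with a difference of -2.21 (SE 0.11, adjusted p = 2.72e-37). All but 1 of the 97 tails lay below every anagen array. Ccr4 was at 5.62, 7.50 and 9.33 in anagen dorsal skin and lower in tail skin by a difference of -2.14 (SE 0.13, adjusted p = 4.13e-30), with 12 of 14 anagen arrays above every tail.

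Ccl25 did not overlap between tail and anagen dorsal skin, where it had values of 4.78, 5.70 and 6.16, and was the only such member, beside 1.6% of all genes that were higher without overlap and 0.335% that were lower. Its difference was 1.45 (SE 0.09, adjusted p = 2.74e-29). Cxcr2, at 4.46, 5.29 and 6.24 in anagen dorsal skin, was higher in tail skin by 1.90 (SE 0.21, adjusted p = 2.26e-14). Ccl8, at 4.69, 7.39 and 9.37 in anagen dorsal skin, differed by -1.77 (SE 0.19, adjusted p = 2.83e-15), with the lowest anagen arrays inside the range of the tails.

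The next comparison set anagen against non-anagen dorsal skin. Of the 52 members 0 were called at the size threshold between anagen and non-anagen dorsal skin, beside 0.680% of all genes called higher and 0.00531% called lower. At any size 1 member was higher, Cxcr4, and 0 were lower, beside 4.11% and 3.59% of all genes. The ranges overlapped in all 52 members, beside 0.0106% of all genes that were higher without overlap and 0% that were lower. At an unadjusted p under 0.05 there were 6 members. Cxcr4, the receptor for Cxcl12 on leukocytes, endothelium and progenitor cells, had values of 5.45, 6.28 and 7.38 in anagen dorsal skin, against 4.75, 5.61 and 6.25 in non-anagen dorsal skin. The ranges overlapped in their middle, with 7 of 14 anagen arrays above every non-anagen array. The difference was 0.63 (SE 0.11, adjusted p = 5.60e-06), and leaving out the 5 arrays that correlated least with their group, 3 of them anagen arrays, gave 0.61 (SE 0.12, adjusted p = 0.000167).

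Its ligand Cxcl12, made by stromal cells, had values of 6.79, 7.99 and 9.11 in anagen dorsal skin and 6.57, 7.59 and 8.28 in non-anagen dorsal skin. The anagen arrays spread to both ends, with 5 of 14 above every non-anagen array, and the difference of 0.34 (SE 0.12, adjusted p = 0.0660) did not pass the test. The other differences among the 5 largest did not pass either: Ccl8 had 0.54 (SE 0.33, adjusted p = 0.372) and Ccr4 -0.47 (SE 0.18, adjusted p = 0.0850). Ccl9 had 0.40 (SE 0.21, adjusted p = 0.285) and Ccl6 0.36 (SE 0.15, adjusted p = 0.127). In Ccr4 the 14 anagen arrays ranged more widely than the 85 non-anagen arrays, with 3 below and 1 above all of them.

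All 8 hair shaft and sheath genes were called higher in anagen dorsal skin, led by Krt71 (4.98, SE 0.25, adjusted p = 1.91e-32) and Krt25 (4.87, SE 0.26, adjusted p = 2.98e-31). Of the T cell, macrophage, Langerhans, neutrophil, natural killer and blood endothelium markers, 0 passed the test at any size in this comparison. Without the size threshold 1 of 8 mast cell markers was higher in anagen dorsal skin. Lower there were 1 of 11 interferon-stimulated genes and 3 of 8 skin markers. Of the 14 cytokines, 2 were lower at any size in anagen dorsal skin, Il33 (-0.62, SE 0.14, adjusted p = 0.000866) and Il18 (-0.31, SE 0.10, adjusted p = 0.0374).

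Within the 14 anagen arrays the levels of Cxcr4 and Cxcl12 were set against the hair, adipocyte and blood endothelium lists, 6 relations that were chosen after the data were seen. Cxcr4 followed the mean of the hair genes (Pearson's r = 0.79, permutation p = 0.00045, adjusted over the 6 relations 0.0027). Spearman's rho was 0.81 (permutation p = 0.00093), and r was 0.71 without the 2 arrays farthest from the median of the hair genes. Cxcl12 gave r = 0.77 (permutation p = 0.00206, adjusted 0.00498) and rho = 0.76 (permutation p = 0.00227), and r = 0.73 without the 2 arrays. All 14 arrays were in batch 1.

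The adipocyte genes gave r = 0.66 with Cxcr4 (permutation p = 0.00989, adjusted 0.0148, rho 0.71 with permutation p = 0.0061), and 0.43 without the 2 farthest arrays, so that relation rests in part on those 2. With Cxcl12 they gave r = 0.75 (permutation p = 0.00249, adjusted 0.00498, rho 0.75 with permutation p = 0.00277), and 0.65 without the 2 arrays. Blood endothelium genes gave r = 0.63 with Cxcr4 (permutation p = 0.0154, adjusted 0.0185, rho 0.51 with permutation p = 0.0663) and 0.28 without the 2 arrays, and r = 0.48 with Cxcl12 (permutation p = 0.0845, adjusted 0.0845, rho 0.45 with permutation p = 0.112) and 0.20 without them. The parts of these tissues in the levels of Cxcr4 and Cxcl12 were not tested.

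**Figure D3:**
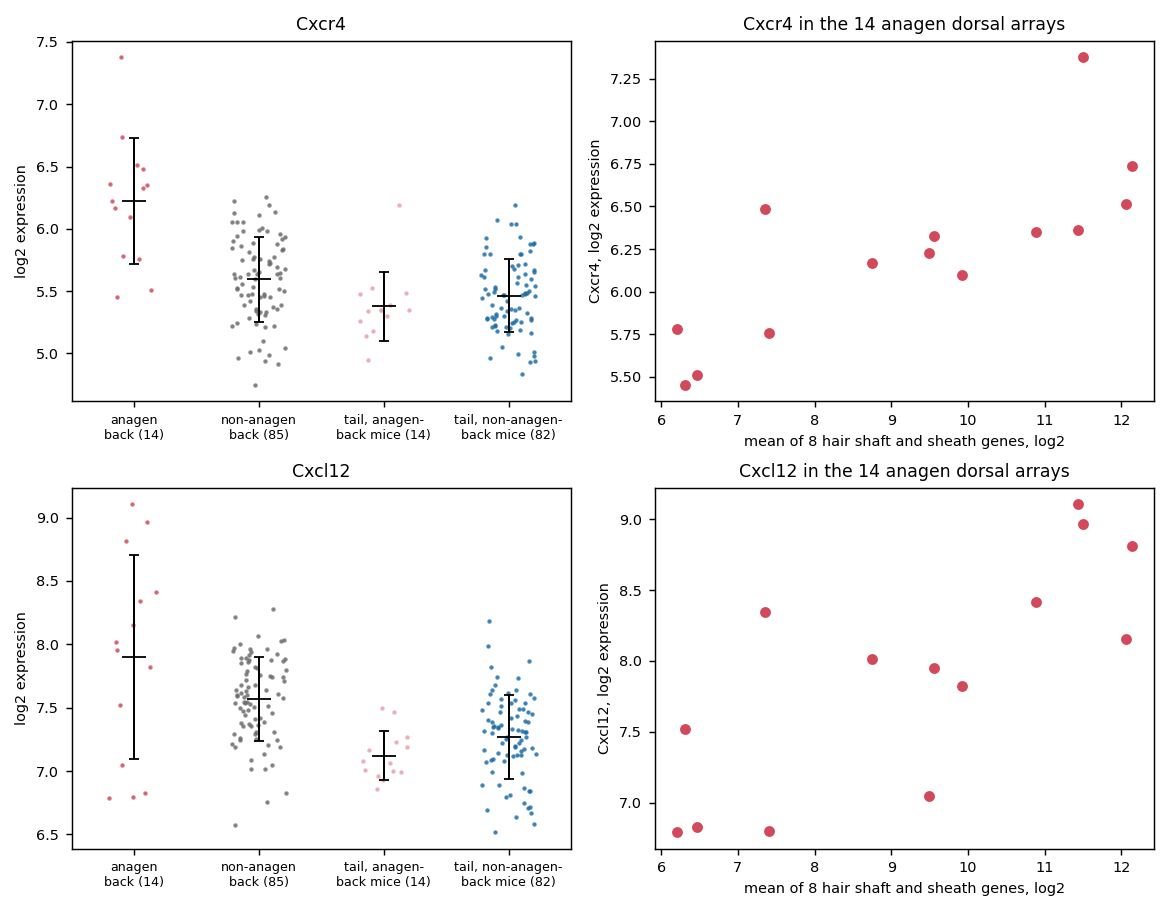
Left, log2 expression (y axis) of Cxcr4 and Cxcl12 in 14 anagen and 85 non-anagen dorsal arrays and in tails of 14 anagen-back and 82 non-anagen-back mice (1 point per array; bar, mean ± SD). Right, the same genes in the 14 anagen dorsal arrays against the mean log2 level of 8 hair shaft and sheath genes (x axis), with r = 0.79 for Cxcr4 and 0.77 for Cxcl12.

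Tails allowed a check of whether the hair cycle state of the back goes with the chemokine levels of another site in the same mice. Between tails of anagen-back mice and tails of non-anagen-back mice, 0 members and 0 of all genes were called by limma (0% in each direction), and at an unadjusted p under 0.05 there were 6 members and 796 genes. The largest difference was that of Ccl20, a keratinocyte ligand that attracts cells bearing Ccr6. It had values of 6.29, 7.11 and 9.02 in the 14 tails of anagen-back mice and 5.58, 6.53 and 8.85 in the 82 tails of non-anagen-back mice. The difference was 0.70 (SE 0.19, adjusted p = 1.00), and the ranges overlapped over most of their length. Ccl17 had 0.33 (SE 0.14), Ccr9 0.26 (SE 0.18), Ccl22 0.23 (SE 0.11) and Cxcl1 0.22 (SE 0.06), all with an adjusted p of 1.00.

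The anagen effect in the back was then set against that in the tail by an interaction contrast, which leaves out the 1 tail of a mouse with no dorsal array. Of the 52 members 0 passed the size threshold, beside 0.765% of all genes higher and 0% lower, and 2 were higher at any size, Cxcr4 and Cxcl12, beside 2.56% of genes higher and 1.22% lower. Cxcr4 in tails had values of 4.95, 5.35 and 6.19 in anagen-back mice and 4.84, 5.47 and 6.19 in non-anagen-back mice, so the tails of both kinds covered the same range. The difference between the effects was 0.73 (SE 0.14, adjusted p = 3.19e-05).

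Cxcl12 in tails had values of 6.86, 7.07 and 7.50 in anagen-back mice and 6.52, 7.31 and 8.19 in non-anagen-back mice. The difference between its effects was 0.49 (SE 0.15, adjusted p = 0.0390), and leaving out the same 5 arrays gave 0.48 (SE 0.15, adjusted p = 0.101), which no longer passed. For Ccl20 the difference of effects was -0.67 (SE 0.24, adjusted p = 0.109), for Ccr4 -0.47 (SE 0.19, adjusted p = 0.207) and for Ccl8 0.46 (SE 0.36, adjusted p = 0.633), and these did not pass.

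Female and male mice were compared within each tissue. In non-anagen dorsal skin 1 member was higher in females, Ccl11, and 2 were lower, Ccl8 and Cxcl12, beside 6.19% and 6.11% of all genes. In tail skin 1 member was higher in females, Ccl9, and 0 were lower, beside 1.64% and 1.20% of all genes. The counts over all genes depended on the scaling. With each array shifted to the same median, 570 genes were higher and 1803 lower in female dorsal skin, against 1165 and 1149 without the shift. In tail skin 399 genes were lower in females with the shift, against 225 without it.

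Ccl11, the eotaxin that recruits eosinophils through Ccr3, had values of 6.49, 7.64 and 10.03 in female and 5.999, 7.01 and 8.11 in male non-anagen dorsal skin. The female arrays reached further up, and the ranges overlapped in their lower part. The difference was 0.70 (SE 0.14, adjusted p = 0.000241). In tails the values were 7.14, 7.90 and 9.18 in females and 6.99, 7.71 and 9.16 in males, with a difference of 0.22 (SE 0.09, adjusted p = 0.172) that did not pass.

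Ccl8 had values of 4.51, 6.15 and 9.71 in female and 5.14, 7.35 and 9.38 in male non-anagen dorsal skin. Both sexes spread over most of the same range, with females lower at the median, and the difference was -0.74 (SE 0.24, adjusted p = 0.0324). Within batch 1 alone it was -0.62 (SE 0.25, adjusted p = 0.113), which did not pass, and batch 2 held 10 arrays. In tails Ccl8 had 4.28, 5.56 and 6.83 in females and 4.27, 5.46 and 6.63 in males (0.15, SE 0.10, adjusted p = 0.482).

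Cxcl12 had values of 6.57, 7.50 and 7.97 in female and 7.05, 7.71 and 8.28 in male non-anagen dorsal skin, with overlap over most of the range. The difference was -0.26 (SE 0.07, adjusted p = 0.00467). Markers of vessels and stroma were lower in females in the same dorsal arrays: 7 of 8 blood endothelium, 4 of 4 lymphatic endothelium and 2 of 6 fibroblast markers were called lower and 0 markers of these lists higher. Cdh5 of blood endothelium differed by -0.47 (SE 0.13, adjusted p = 0.00699), Flt4 of lymphatic endothelium by -0.54 (SE 0.12, adjusted p = 0.00114) and the collagen gene Col1a1 by -0.98 (SE 0.11, adjusted p = 1.56e-11). The mean of the blood endothelium markers was 5.92 to 8.08 in female and 6.60 to 8.19 in male arrays. Their part in the sex differences of Cxcl12 and Ccl8 was not tested. In tails Cxcl12 had 6.58, 7.36 and 7.82 in females and 6.52, 7.19 and 8.19 in males.

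Ccl9, a ligand of Ccr1, had values of 5.27, 6.28 and 7.60 in female and 4.86, 5.92 and 7.29 in male tails. The female tails sat higher at each of the 3 values, and the difference was 0.38 (SE 0.11, adjusted p = 0.0331). In the same tails 5 of 5 adipocyte, 4 of 8 mast cell and 1 of 13 macrophage and dendritic cell markers were called higher in females, and 0 markers of these lists lower. The mean of the adipocyte markers was 5.67 to 8.52 in female and 5.46 to 7.66 in male tails. The part of these cells in the Ccl9 difference was not tested. In non-anagen dorsal skin its values were 4.68, 5.46 and 7.97 in females and 4.59, 5.81 and 7.78 in males. Of the other large differences in tails, Ccl17 (0.31, SE 0.10, adjusted p = 0.0707) and Ccl7 (0.17, SE 0.07, adjusted p = 0.157) did not pass, and in non-anagen dorsal skin Cxcl9 (0.39, SE 0.22, adjusted p = 0.271) and Ccl24 (-0.33, SE 0.13, adjusted p = 0.0797) did not.

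**Figure D4:**
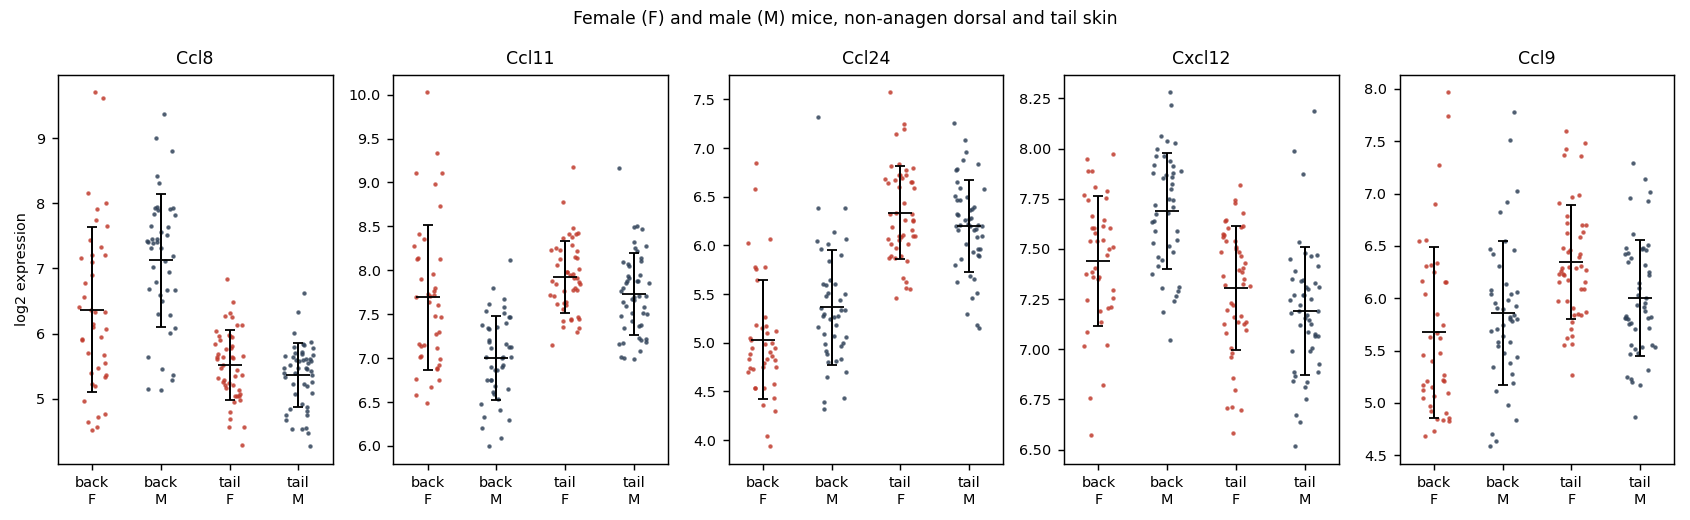
Log2 expression (y axis) of 5 ligands in female and male non-anagen dorsal skin (41 and 44 arrays) and in female and male tails (48 and 49 arrays), 1 point per array with the mean ± SD. The female median of Ccl8 in dorsal skin is 6.15 and the male median 7.35, while in tails the medians are 5.56 and 5.46.

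The sex difference was set against itself between tissues, as the effect in non-anagen dorsal skin minus that in tail. There 1 member was higher and 3 were lower, beside 4.63% and 4.46% of all genes. Over all genes 872 were higher, and 481 with each array shifted to the same median. Cxcl12 had -0.38 (SE 0.09, adjusted p = 0.0032), Ccl8 -0.89 (SE 0.26, adjusted p = 0.0163), Ccl24 -0.47 (SE 0.16, adjusted p = 0.0474) and Ccl11 0.49 (SE 0.17, adjusted p = 0.0436). With batches 1 and 4 alone, a setting chosen after the data were seen, the adjusted p was 0.051 for Ccl8, 0.111 for Ccl24 and 0.0718 for Ccl11. With every array shifted to the same median it was 0.0765 for Ccl11. Ccl9 had -0.55 (SE 0.19, adjusted p = 0.0518), which passed with mouse as a random block (adjusted p = 0.0380).

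Ccl24 lay just past the threshold in this test. It had values of 3.94, 4.90 and 6.85 in female and 4.32, 5.28 and 7.32 in male non-anagen dorsal skin, and 5.46, 6.26 and 7.57 in female and 5.15, 6.21 and 7.26 in male tails. Females had the lower median in dorsal skin and the higher one in tails.

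Whether a mouse with much of a chemokine transcript in the back also has much in the tail was examined in the 82 mice with both non-anagen dorsal and tail arrays, with each gene adjusted for sex and batch within tissue. The median r over the 52 members was 0.085, and 0.081 over all genes. An adjusted p under 0.05, taken over all genes from 100 random pairings of mice, was reached by 4 members (7.69%), beside 8.92% of all genes, and all 4 correlations were positive. In at least 1 tissue, Cxcl9, Cxcl10, Ccr1l1, Ccl5 and Cxcl13 met the rule for a cut into a lower and a higher set of arrays. A long upper tail of values can meet that rule as well as separate clusters can. None of these genes was among the 4 members.

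Ccl6 had the highest r, 0.41 (permutation p = 0.00014, adjusted p = 0.00327), with rho = 0.46 (permutation p = 6e-05) and r = 0.43 without the 2 mice farthest from the median of the back. Ccl19 had r = 0.34 (permutation p = 0.00174, adjusted p = 0.0239), with rho = 0.41 (permutation p = 0.00011) and 0.46 without the 2 mice. Within the 72 mice of batches 1 and 4, r was 0.43 for Ccl6 and 0.33 for Ccl19, and the adjusted p of Ccl19 was 0.0617 there. With each array shifted to the same median, r of Ccl19 was 0.30 (adjusted p = 0.0699), so Ccl19 lost its call in both of these settings.

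Ccr4 had r = 0.33 (permutation p = 0.00229, adjusted p = 0.0312), with rho = 0.34 (permutation p = 0.00201). Without the 2 farthest mice r was 0.30 (adjusted p = 0.0674), and within batches it was 0.30 (adjusted p = 0.112), so its call was lost in both settings. Cxcr2 had r = 0.33 (permutation p = 0.00264, adjusted p = 0.0358), with rho = 0.42 (permutation p = 8e-05), 0.44 without the 2 mice and 0.39 within batches. Cxcl1 had r = 0.30 (permutation p = 0.0064, adjusted p = 0.0622), with rho = 0.29 (permutation p = 0.0096), 0.29 without the 2 mice and 0.29 within batches. Adding the 14 anagen-back mice, with hair cycle state adjusted, brought Ccl20 to r = 0.38 (adjusted p = 0.00344), against 0.25 (adjusted p = 0.151) in the 82 mice alone, and Cxcl1 passed there as well (r = 0.30, adjusted p = 0.0368).

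**Figure D5:**
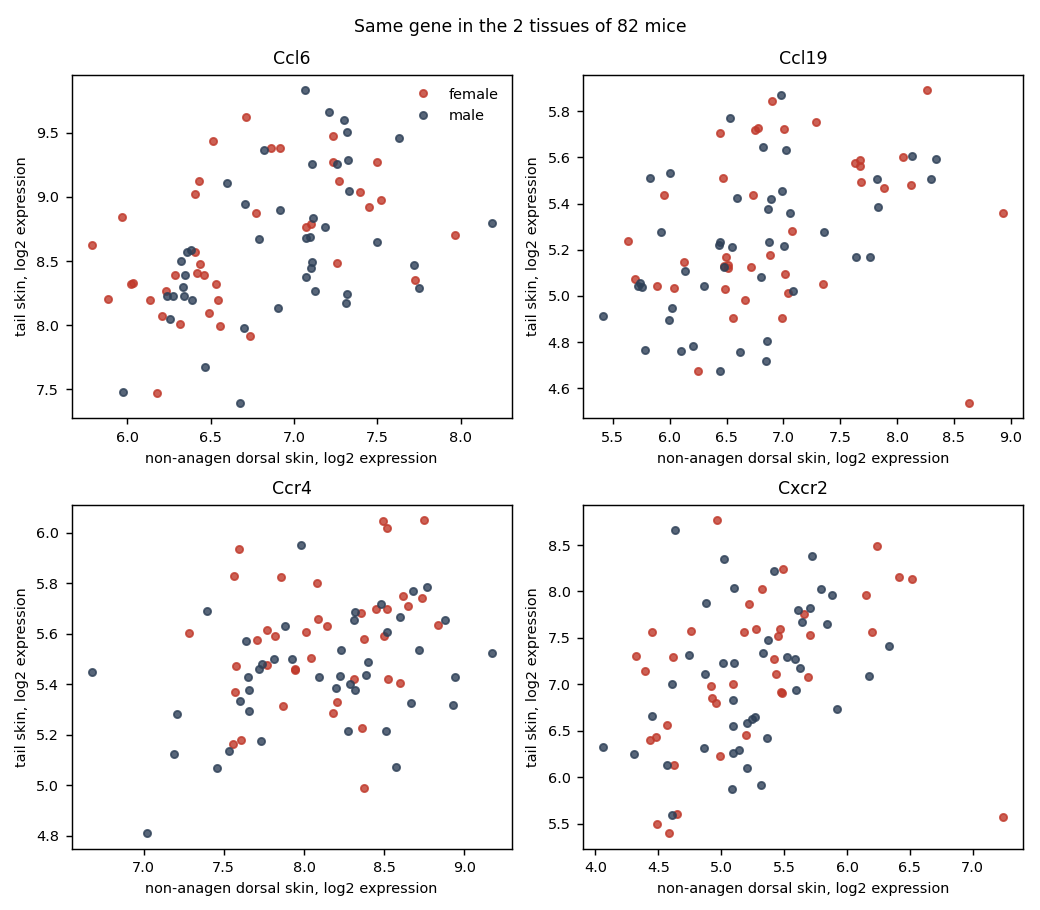
Log2 expression of Ccl6, Ccl19, Ccr4 and Cxcr2 in tail skin (y axis) against non-anagen dorsal skin (x axis) of the same mouse, 82 mice, unadjusted values, coloured by sex. After adjustment for sex and batch r is 0.41 for Ccl6, 0.34 for Ccl19, 0.33 for Ccr4 and 0.33 for Cxcr2.

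Ligands were also set against their own receptors across the mice of each tissue. Textbook pairs were used where both genes were measured and neither met the rule for a lower and a higher set in that tissue. They gave 23 relations in tail skin and 24 in non-anagen dorsal skin, 47 in all, with p-values adjusted over the 47. In tail skin 6 of 23 were positive at an adjusted p under 0.05 and 0 negative, and in dorsal skin 10 of 24 were positive and 0 negative. Of the 10, Ccl19 with Ccr7, Ccl1 with Ccr8 and Ccl9 with Ccr1 lost the call both within batch 1 (adjusted p = 0.133, 0.120 and 0.0636, in that order) and without the 2 arrays farthest in the ligand (0.185, 0.0786 and 0.147). Of the 6 in tail skin, Ccl3 with Ccr1 and Ccl6 with Ccr1 lost it without those 2 arrays (0.0893 and 0.137). The median r was 0.15 in tail and 0.16 in dorsal skin. Pairs of other genes were not computed, so these counts have no background share beside them. The genes of a pair share array, RNA quality and cell content, so these are descriptions of arrays and not of a signal between cells.

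In dorsal skin (n = 85 arrays) the highest r was that of Ccl7 with Ccr2, the receptor of inflammatory monocytes, at 0.78 (permutation p = 1e-05, the smallest the permutations can give, adjusted p = 0.000117, rho 0.72). It was 0.72 without the 2 arrays farthest in the ligand and 0.79 within batch 1. Ccl2 with Ccr2 had r = 0.58 (adjusted p = 0.000117, rho 0.45, 0.49 without the 2 arrays, 0.55 within batch 1). Xcl1 with Xcr1 had r = 0.53 (adjusted p = 0.000117, rho 0.44, 0.37 without the 2 arrays, 0.50 within batch 1).

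Cxcl12 with Cxcr4 had r = 0.43 in dorsal skin (permutation p = 4e-05, adjusted p = 0.000376, rho 0.48, 0.49 without the 2 arrays, 0.37 within batch 1). In tail skin (n = 97 arrays) the same pair had the highest r, 0.59 (permutation p = 1e-05, adjusted p = 0.000117, rho 0.58, 0.54 without the 2 arrays, 0.60 within batch 4). Ccl3 with Ccr1 had r = 0.38 in dorsal skin (permutation p = 0.00046, adjusted p = 0.0024, rho 0.40, 0.42 without the 2 arrays, 0.39 within batch 1). In tail skin that pair had r = 0.31 (permutation p = 0.00194, adjusted p = 0.00829, rho 0.26), which went to 0.23 (adjusted p = 0.0893) without the 2 arrays.

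The remaining leading pairs of tail skin were Ccl9 with Ccr1, Ccl25 with Ccr9 and Ccl7 with Ccr2. Ccl9 with Ccr1 had r = 0.38 (permutation p = 0.00018, adjusted p = 0.00128, rho 0.36, 0.34 without the 2 arrays, 0.38 within batch 4). Ccl25 with Ccr9 had r = 0.37 (permutation p = 0.00019, adjusted p = 0.00128, rho 0.34, 0.36 without the 2 arrays, 0.37 within batch 4). Ccl7 with Ccr2 had r = 0.37 (permutation p = 0.00027, adjusted p = 0.00159, rho 0.40, 0.40 without the 2 arrays, 0.37 within batch 4). The pairs shared by both tissues at this threshold were Ccl7 with Ccr2, Cxcl12 with Cxcr4, Ccl3 with Ccr1 and Ccl9 with Ccr1. Ccl2 with Ccr2 did not pass in tail skin (r = 0.18, adjusted p = 0.180), but its rho of 0.28 did (adjusted p = 0.0239). Its r in tail skin passed without the 2 arrays farthest in the ligand (0.36, adjusted p = 0.00235) and with shifted medians (0.26, adjusted p = 0.0267). In dorsal skin Ccl9 with Ccr1 had r = 0.29 (adjusted p = 0.0254), 0.27 within batch 1 and 0.21 without the 2 arrays, and its rho of 0.21 did not pass (adjusted p = 0.133). Whether r differs between tissues was not tested.

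The best cut of Cxcl10 in dorsal skin gave 79 lower and 6 higher arrays, 6 being the smallest set allowed. Within the 79 its r with Cxcr3 was 0.34 (permutation p = 0.00193, rho 0.33). Cxcl9 with Cxcr3 had r = 0.34 over all 85 dorsal arrays (adjusted p = 0.00658, rho 0.36). In tail skin the best cut of Cxcl9 set 6 higher arrays apart. Within the 91 lower tail arrays r was -0.0051 (permutation p = 0.962, rho -0.01). Those arrays cover a narrower range of Cxcl9, and no r over all tails was computed, so these values do not compare the tissues.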

How the data were processed

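Skin of backcross mice was measured on gene arrays, 196 arrays of 100 mice. The authors deposited log2 expression values made with RMA (robust multi-array average), per the submitters' processing notes; its version is not given in the sources used here, nor whether the values were adjusted afterwards. Of 35556 probe sets, 21218 name 1 gene, 1881 several and 12457 none; the medians of the arrays differ. The single-gene probe set with the highest mean was kept for each of 18820 genes, with no filter on low values. Groups, batch and sex come from the labels; 0 arrays were duplicates. Precision is limited by the number of arrays, and each array of a group is a different mouse.

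The limma package (3.58.1, R 4.3.3; lmFit, then eBayes) gave the differences, with sex and, within a tissue, batch as covariates, on the arrays compared only. The code was tested on simulated data. Correlations, two-sided with 100000 permutations, used scipy 1.17.1, numpy 2.4.6 and pandas 2.3.3 under Python 3.11.15; matplotlib 3.10.9 drew the figures. Genes were held to be clustered when the best cut gave means 4 or more pooled SDs apart, with 6 or more arrays on either side. The rule asks for no gap between the sets, so a long tail of values can meet it. Full values are given for called members, the 5 largest differences or correlations of each comparison and the 2 leading genes of each list; the list genes Cd5, Cd28, Cd4, Adgre1, Cd209a and Grk3 are named outside this rule, after their values were seen. The members and lists were chosen with earlier results of these data known.

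The mouse number pairs the tissues, since it names the animal. Over all genes, the median correlation of a tail's deviations with its own mouse's dorsal array was 0.118 in 82 mice, against 0.0013 for other mice. Alternatives were other scalings, probe set rules, a filter, batches, the mouse as a block and leaving out arrays.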

Additional observations from a re-analysis of the deposited data

Results flagged for a closer look

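The following values stood out because an effect differed between tissues by an interaction contrast in limma. The anagen effect in the back minus that in the tail was 0.73 for Cxcr4 (adjusted p = 3.19e-05) and 0.49 for Cxcl12 (adjusted p = 0.0390). The effect of sex, female minus male, in non-anagen dorsal skin minus that in tail was -0.38 for Cxcl12 (adjusted p = 0.0032), -0.89 for Ccl8 (adjusted p = 0.0163), 0.49 for Ccl11 (adjusted p = 0.0436) and -0.47 for Ccl24 (adjusted p = 0.0474). Batch lies within tissue, so a batch that alters the effect cannot be told apart from the tissue.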

How the results depend on the processing

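Of 2368 recomputed values of single genes or pairs, 24 lost the call, size threshold included, 11 gained it, and 0 called values changed sign. By the adjusted p alone 40 lost a value under 0.05 and 33 gained one, among them the lost anagen effect of Cxcl12 between tissues. The sign changed in 96 values, 1 of which had an adjusted p under 0.05 before: Cxcl5 between tail and non-anagen dorsal skin, higher by 0.08 (adjusted p = 0.0362) with quantile normalization. A filter to genes above the median of all gene means in the higher group left 3 members called higher in tail skin, against either kind of dorsal skin. It removed Ccr9 and Ccl24, called higher without it, and Cxcl10 and Xcl1, called lower without it. These genes lay under that median in every group and were not tested with the filter, so they are not among the 24. In the sex comparisons, dorsal skin of batch 1 alone had 1 member lower in females, and dorsal skin without the 5 arrays least like their group, an alternative chosen after the data were seen, had 2 higher (Ccl4 joined). For the sex effect between tissues, 0 members were higher with each array shifted to the same median, and 0 higher and 1 lower with batches 1 and 4 alone, also chosen after the data were seen. Between back and tail, 2 members correlated in mice of batches 1 and 4. With that shift of the medians, 10 ligand and receptor pairs passed in tail skin. The cause of these shifts was not tested. With mouse as a replicate block, or the difference within each mouse, 5 members were higher and 6 lower in tail than in non-anagen dorsal skin, as without it. The block moved the sex effect to 4 lower members (Ccl9 joined). Against anagen dorsal skin, the difference within each mouse brought Ccl28 past the size threshold (1.17) and Ccl24 under it (0.91). It changed no other call. Low signals near the arrays' unknown background limit what can be seen of the dimmer members.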

Other observations

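Genes that act beside Cxcr4 and Cxcl12 were also measured in anagen against non-anagen dorsal skin. The atypical receptor Ackr3, which takes up Cxcl12, had -0.23 (SE 0.08, adjusted p = 0.0811) between anagen and non-anagen dorsal skin, and of 27 signalling genes Rgs16, a regulator of G protein signalling, had 0.43 (SE 0.15, adjusted p = 0.0494) and Grk3, a receptor kinase, had -0.28 (SE 0.08, adjusted p = 0.0179), the 1 higher and the 1 lower at any size. Of 5 adipocyte markers 0 passed the test, and Fabp4, a fatty acid carrier, had 0.84 (SE 0.30, adjusted p = 0.0710). The median difference over the 52 members was 0.03, beside -0.02 over all genes.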
